A study of Mus musculus with 30 samples.

Results

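Mnx1 (also called Hb9; ENSMUSG00000001566) and its locus were followed through all RNA libraries and peak lists of the series: 1 gene of 45706 in the RNA files, and 112 of 339038 regions in the 11 peak lists. The locus was taken as the gene, chr5:29473823-29478470 on the minus strand (mm10, 4648 bases), with 100 kb on each side, a window of 204.648 kb. Every listed region that touched this window was kept, whatever its height. The series compares mouse embryonic stem (ES) cells with motor neurons induced from them, and asks which neuronal genes depend on Mnx1. RNA was measured in motor neurons of line HD, of line EH and of wild type (WT), and in WT ES cells, with 2 libraries each. Both HD and EH carry the genotype label Mnx1KO. The labels do not explain either line name, give no number of clones, and leave out whether replicate libraries came from separate cultures, so errors and p-values cover the spread between these libraries, which may be technical. All motor neurons were harvested at day 6, after retinoic acid (1 µM), the Smoothened agonist SAG (1 µM), doxycycline (1 µM) and the Notch pathway inhibitor DAPT (5 µM). What doxycycline induces is not stated. ChIP-seq covered 5 histone marks in HD and WT motor neurons and Mnx1 itself in WT. The antibody list names GFP and no antibody to Mnx1, so the protein pulled down as Mnx1 is known by its label only.

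Mnx1 is a homeodomain transcription factor, a protein that binds short AT-rich DNA through its homeodomain. In the mouse spinal cord it is made by motor neurons as they leave the cell cycle, where it holds down genes of neighbouring V2 interneurons, and it is also needed in the developing pancreas. H3K4me3 marks active promoters, H3K4me1 the flanks of promoters and enhancers, H3K27ac active promoters and enhancers, H3K27me3 chromatin held by Polycomb, and H3K9me3 heterochromatin.

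The promoters of Mnx1 and of its neighbour Ube3c are shown because the Mnx1 ChIP list holds a region on each of them. They are the 250 bases before the RefSeq start (GRCm38.p6, the assembly behind mm10), written along each gene's own strand. Capitals mark matches to the homeodomain core TAAT or its other strand ATTA, and in Mnx1 also the longer TAATTG.
Mnx1, chr5:29478471-29478720, minus strand: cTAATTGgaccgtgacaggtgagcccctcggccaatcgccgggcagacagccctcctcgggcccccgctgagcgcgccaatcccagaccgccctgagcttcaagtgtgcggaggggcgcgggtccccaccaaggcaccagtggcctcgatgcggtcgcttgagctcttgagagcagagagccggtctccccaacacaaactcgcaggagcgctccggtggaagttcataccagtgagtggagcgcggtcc
Ube3c, chr5:29568992-29569241, plus strand: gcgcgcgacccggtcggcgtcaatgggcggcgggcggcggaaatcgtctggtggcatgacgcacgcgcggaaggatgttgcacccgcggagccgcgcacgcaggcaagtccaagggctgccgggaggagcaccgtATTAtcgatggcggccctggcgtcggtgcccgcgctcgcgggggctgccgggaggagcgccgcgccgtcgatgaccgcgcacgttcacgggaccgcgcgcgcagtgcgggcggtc
In the Mnx1 promoter the only TAAT match was part of a TAATTG that lay 249 to 244 bases before the start, 16 bases from the summit of the Mnx1 region. That match overlapped an ATTGG, which is CCAAT on the other strand, and 2 more CCAAT stood on the gene strand. In the Ube3c promoter the only match was an ATTA, 11 bases from the summit. Searched on both strands in 32851 promoter windows of this length, TAAT was in 54.9%, TAATTG in 7.17%, TAATTA in 4.84% and CCAAT in 33.8%. In the 2870 windows that overlapped a Mnx1 region the shares were 38.7% for TAAT, 5.71% for TAATTG, 1.95% for TAATTA and 42.9% for CCAAT. These matches describe letters in the windows and are not binding sites shown here.

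Mnx1 RNA was abundant in all motor neurons, including both lines labelled as knockouts, and nearly absent from ES cells. Levels are in TPM, which scales reads for transcript length and library size. Mnx1 had 377 and 312 TPM in HD, 446 and 565 TPM in EH, 395 and 343 TPM in WT motor neurons, and 0.36 and 0.29 TPM in ES cells. Both EH libraries lay above all 4 other motor neuron libraries, the HD and WT libraries overlapped, and ES cells lay far below. In order of level, EH averaged 505 ± 83.7 TPM, WT 369 ± 36.6 TPM, HD 345 ± 45.4 TPM and ES cells 0.325 ± 0.0495 TPM (SD, n = 2 each), and the neighbours WT and HD in that order did not differ beyond their spread. The expected counts behind these levels were 4763 and 4544 in HD, 21802 and 26142 in EH, 6592 and 5791 in WT motor neurons, and 28 and 23 in ES cells. By TPM, Mnx1 ranked between 206 and 458 from the top in the 6 motor neuron libraries, and 15913 and 16737 in ES cells.

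**Figure D1:**
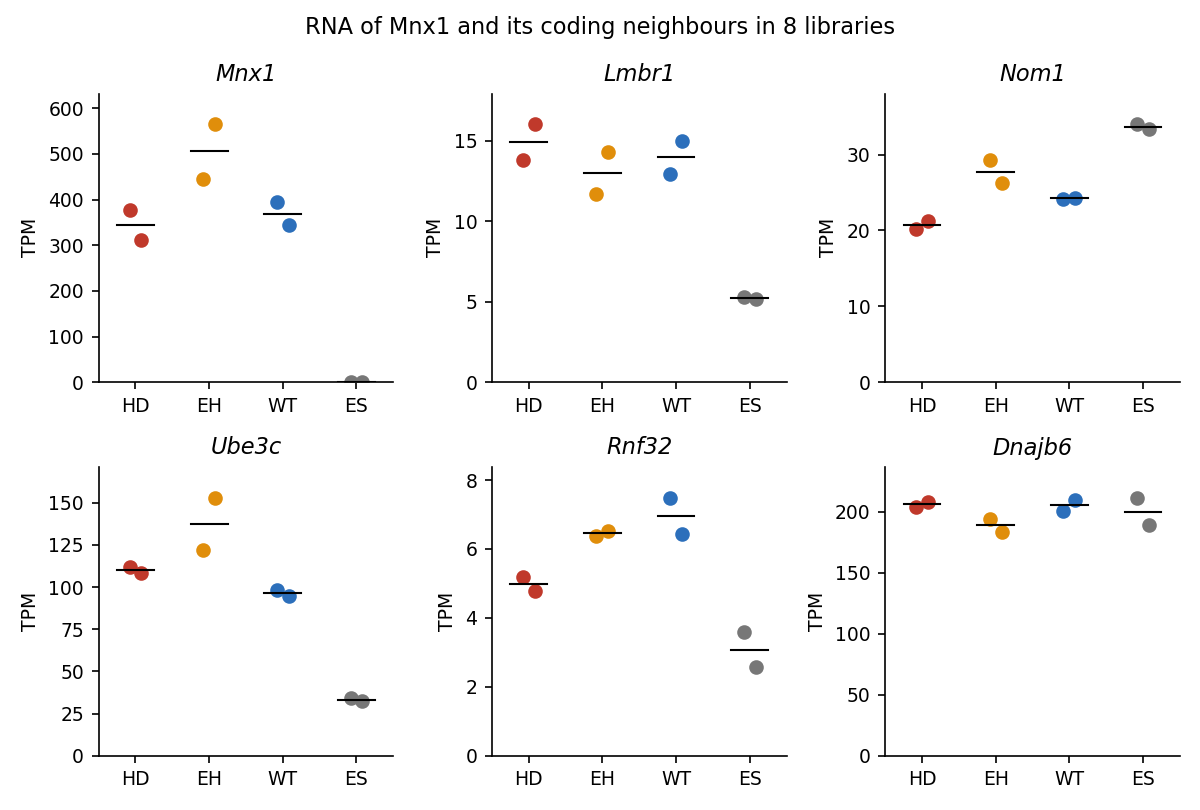
TPM (vertical axis, starting at 0) of Mnx1 and of its 5 protein-coding neighbours within 500 kb in HD, EH and WT motor neurons and ES cells; each point is 1 library and each line a group mean. Mnx1 lies between 312 and 565 TPM in motor neurons and at 0.36 TPM or less in ES cells, whereas every neighbour is present in both kinds of cell.

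Against ES cells, Mnx1 rose by 9.55 ± 0.22 on the log2 scale in WT motor neurons (SE; edgeR quasi-likelihood test with Benjamini-Hochberg adjustment, adjusted p = 9.2e-08). In that comparison 75.3% of tested genes were called (38.8% up, 36.5% down, at an adjusted p of 0.05), so a call alone says little. In bulk RNA, fewer cells of a type and less RNA per cell cannot be told apart.

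Mnx1 RNA was not called in HD against WT, where its log2 difference came to -0.14 ± 0.15 (edgeR adjusted p = 0.977), in a comparison that called 0.173% of 15565 genes. In EH against WT it was 0.46 ± 0.15 (edgeR adjusted p = 0.064), where 21.2% of genes were called. The EH value passed in 3 of 11 alternatives, with an adjusted p between 0.0036 and 0.299, and without EH replicate 1 it was 0.63 (adjusted p = 0.0036). Directly compared, HD was lower than EH, at -0.61 ± 0.15 on the log2 scale (edgeR adjusted p = 0.0294), in a comparison that also called 21.2% of genes. That call was lost without HD replicate 1 (adjusted p = 0.0846), without HD replicate 2 (adjusted p = 0.21) and with the replicate number as a block (adjusted p = 0.0692). Counts over a whole gene do not show a change inside it, so they do not check the knockouts.

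RSEM also gives each gene a transcript length averaged over its transcripts by their share, which for the 2 annotated Mnx1 transcripts was 2141 and 2193 bases in HD, 2228 and 2233 in EH, 2245 and 2238 in WT motor neurons, and 2087 and 2194 in ES cells. Both HD libraries lay below both WT libraries, by 75.1 bases or 3.35% on average. Of 9540 genes with several transcripts, 15.2% had both HD libraries below both WT libraries and 37.8% had a difference as large in either direction, so the Mnx1 value was near the background. In EH the difference was -11.2 bases, where 22.1% of genes had both EH libraries below both WT libraries.

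Spinal motor neuron markers were present in all motor neuron cultures: the 7 genes Isl1, Isl2, Lhx3, Chat, Slc18a3, Slc5a7 and Prph were all at 1 TPM or more in all 6 libraries. Their summed level was 1276 and 1136 TPM in HD, 1491 and 1809 TPM in EH, 1426 and 1148 TPM in WT motor neurons, and 5.46 and 5.86 TPM in ES cells. This sum was highest in both EH libraries and overlapped between HD and WT. Without Isl1 it was 861 and 805 TPM in HD, 897 and 1114 TPM in EH, and 1063 and 865 TPM in WT. EH and WT then overlapped, and both HD libraries lay below every EH and WT library, narrowly so for 861 beside 865 TPM. Chat and Slc18a3, the acetylcholine synthase and its vesicle transporter, had lower means in EH than in WT. Trophoblast genes (6 markers, among them Tpbpa) were lowest in EH, and summed to 431 and 569 TPM in HD, 88.1 and 24.2 TPM in EH, and 542 and 467 TPM in WT. The part of the cell mixture in the Mnx1 level of EH was not tested. Pancreas and gut endoderm, where Mnx1 is also used, gave 4.86 to 12.9 TPM over 7 markers in motor neurons, with Pdx1, Ptf1a, Ins1 and Neurog3 under 1 TPM in every library. Notochord and floor plate gave 5.17 to 9.05 TPM over 5 markers, with Noto at 0 in all 6 libraries, and glia gave 7.33 to 11.8 TPM over 5 markers. ES cell markers (5 genes) summed to 71.6 to 193.9 TPM in motor neurons, highest in EH replicate 1, against 5476 to 6103 TPM in ES cells.

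The neighbours of Mnx1 were active in both motor neurons and ES cells, and none of them passed the test in HD. Within 100 kb lie Nom1, a nucleolar protein, Lmbr1, a membrane protein whose intron in mouse holds the limb enhancer of Shh, and Ube3c, a ubiquitin ligase. Rnf32, a RING finger protein, and Dnajb6, a chaperone, lie within 500 kb. None of the 5 was called in HD against WT, where 0.173% of all genes were called. Their log2 fold changes there lay between -0.37 (Rnf32) and 0.19 (Ube3c). Ube3c had 112 and 108 TPM in HD, 122 and 153 TPM in EH, 98.3 and 94.5 TPM in WT motor neurons, and 34.0 and 32.2 TPM in ES cells. It was the only 1 of the 5 called in EH against WT (0.53 ± 0.12, edgeR adjusted p = 0.0236), in a comparison that called 21.2% of genes. That call was lost without WT replicate 1, without WT replicate 2, in a fit of EH and WT only and with the replicate block. Ube3c and Mnx1 were both highest in EH replicate 2.

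Against ES cells, WT motor neurons were higher for Ube3c (log2 fold change 0.87 ± 0.12), for Lmbr1 (0.80 ± 0.15) and for Rnf32 (0.63 ± 0.22), and lower for Nom1 (-1.20 ± 0.11) and Dnajb6 (-0.64 ± 0.10), all called by edgeR with adjusted p-values up to 0.0296. These values depend on the scaling: the median over the 17770 tested genes was 0.02 on the edgeR scale and 0.43 on log2(TPM + 1). On log2(TPM + 1) the differences were 1.52 for Ube3c, 1.27 for Lmbr1, 0.97 for Rnf32 and -0.46 for Nom1, all called by limma. The Dnajb6 difference turned to 0.038 there, so it has no direction that holds. On either scale Ube3c, Lmbr1 and Rnf32 lay above the median and Nom1 and Dnajb6 below it. The Rnf32 call was lost without WT replicate 1 (0.48) and without ES replicate 2 (0.48). Lmbr1 stood at 13.0 and 15.0 TPM in WT motor neurons and 5.27 and 5.15 TPM in ES cells, and Nom1 at 24.2 and 24.3 TPM in WT motor neurons and 34.0 and 33.4 TPM in ES cells. The rise of Mnx1 was thus larger than that of any of the 5 neighbours. Of the other genes in the window, the pseudogene Gm6083 had 3 to 27 counts in motor neuron libraries and 0 and 1 count in ES cells (2.4 to 6.26 TPM in motor neurons, 0 and 0.13 TPM in ES cells). The small nuclear RNA gene Gm24538 had no counts in any library, and the long noncoding RNA Gm36086 was not matched to an ID.

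The genes whose pattern over the 8 libraries was most like that of Mnx1 were Ecel1, Slit2, Slc10a4, Lhx3 and Dcx. Likeness was the root mean square difference of log2(TPM + 1), each gene centred on its mean, among 10017 genes with a mean of 10 TPM or more in WT motor neurons. Since Mnx1 differs most between motor neurons and ES cells, this measure chiefly finds genes of that size of difference. Ecel1, a membrane endopeptidase of motor neurons, was closest, with a difference of 0.126. It had 366 and 298 TPM in HD, 458 and 563 TPM in EH, 468 and 332 TPM in WT motor neurons, and 0.16 and 0.2 TPM in ES cells. Slit2, a secreted axon guidance ligand, followed with 0.185, Slc10a4, a transporter of cholinergic vesicles, with 0.235, Lhx3, a LIM homeodomain partner of Isl1, with 0.294, and the microtubule protein Dcx with 0.321. Slit2 had 667 and 595 TPM in HD, 945 and 1269 TPM in EH, and 626 and 582 TPM in WT, so that EH did not overlap the other groups. These 5 were chosen on the same libraries, so their levels are a description, and no test result is given here for any of them by name.

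**Figure D2:**
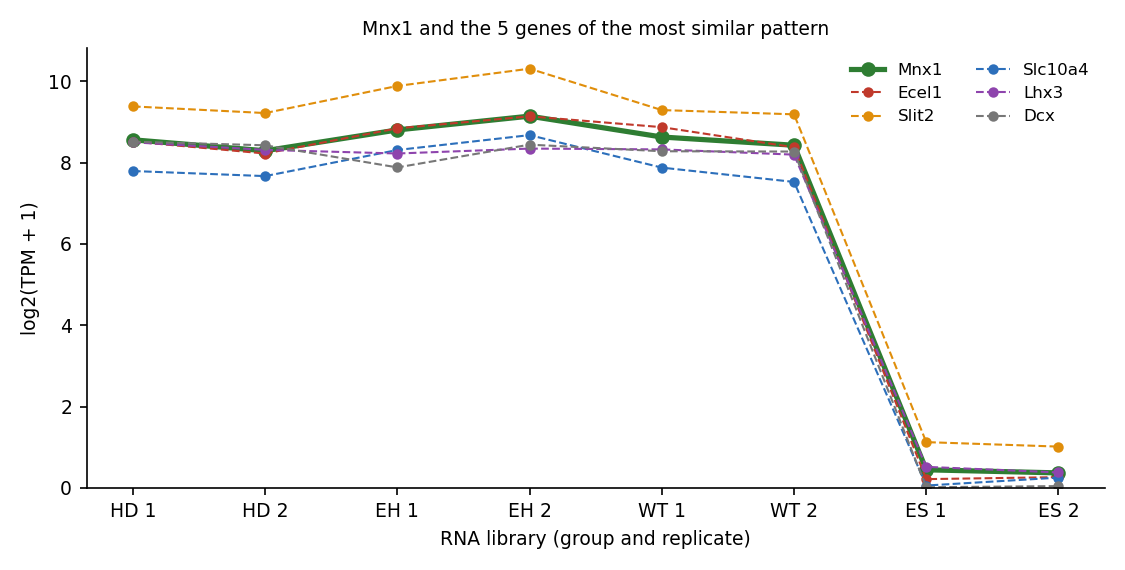
log2(TPM + 1) (vertical axis) of Mnx1 and of the 5 genes of the most similar pattern in each of the 8 RNA libraries (horizontal axis, by group and replicate). Ecel1 runs closest to Mnx1, and Slit2 lies above its HD and WT levels in both EH libraries.

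Genes related to Mnx1 by family or pathway were read from lists, and no member of any list was called in HD against WT. The nearest relatives within the homeobox family are En1, En2, Gbx1 and Gbx2, which with Mnx1 form the EHGbox group. Gbx2, a factor of the anterior hindbrain, had 27.3 and 21.6 TPM in HD, 18.4 and 17.6 TPM in EH, 9.99 and 8.5 TPM in WT motor neurons, and 65.1 and 49.4 TPM in ES cells. Both lines lay above WT without overlap, and ES cells above all. The HD against WT difference of Gbx2 was 1.37 ± 0.18 on the log2 scale (edgeR adjusted p = 0.0514; between 1.21 and 1.55 with any 1 replicate left out) and that of EH against WT was 0.62 ± 0.17 (edgeR adjusted p = 0.048). The HD difference passed with DESeq2, with no filter, in a fit of HD and WT only and on log2(TPM + 1), and the EH call was lost without WT replicate 1, without WT replicate 2 and in a fit of EH and WT only. En2, a midbrain and hindbrain factor, had 2.32 and 4.38 TPM in HD, 1.13 and 0.6 TPM in EH, and 3.48 and 3.32 TPM in WT. It fell in EH against WT by 1.95 ± 0.40 on the log2 scale (edgeR adjusted p = 0.0187), a call lost without WT replicate 1 and without WT replicate 2. Gbx1 had 0.62 to 2.36 TPM and was called in neither line, and En1, at 0.23 TPM or less in motor neurons, was too low to be tested there. Of the 4 relatives, En1 and Gbx2 were lower in WT motor neurons than in ES cells, Gbx2 by -3.33 ± 0.19, where 36.5% of all genes fell, and none was higher; the En1 call was lost without WT replicate 1 and without WT replicate 2. Mnx1 was the only member of the group called higher in motor neurons.

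Among 22 motor neuron progenitor and specification factors, the group Mnx1 acts with, 0 were called in HD against WT and 7 rose and 0 fell in EH, where 9.61% of all genes rose. The median log2 fold change of the list was 0.05 in HD and 0.13 in EH, against -0.01 and 0.00 over all tested genes. Isl1, the LIM homeodomain factor that sets motor neuron identity, had 416 and 331 TPM in HD, 594 and 695 TPM in EH, and 363 and 283 TPM in WT, with EH above both other groups. It rose in EH by 0.89 ± 0.15 (edgeR adjusted p = 0.0108). The early B-cell factor Ebf1 rose by 1.43 ± 0.18, the proneural factor Neurod1 by 1.56 ± 0.31, and the progenitor factors Pax6 by 1.40 ± 0.30 and Nkx6-1 by 0.81 ± 0.17. In HD, Lhx4, Onecut1 and Lmo4 came nearest to the threshold without passing and are named after their values were seen. The LIM homeodomain factor Lhx4 had 38.7 and 29.7 TPM in HD, 92.5 and 109.2 TPM in EH, and 83.9 and 67.2 TPM in WT. Its HD against WT difference was -1.17 ± 0.16 on the log2 scale (edgeR adjusted p = 0.06). The cut homeobox factor Onecut1 had 56.6 and 57.4 TPM in HD, 16.3 and 23.5 TPM in EH, and 24.9 and 29.0 TPM in WT, with an HD difference of 1.06 ± 0.20 (edgeR adjusted p = 0.143). For both genes HD did not overlap either other group. Both differences passed with DESeq2, with no filter and in a fit of HD and WT only. Lmo4 had 226 and 182 TPM in HD, 198 and 174 TPM in EH, and 117 and 130 TPM in WT, with both lines above WT without overlap. Its log2 difference from WT was 0.71 ± 0.12 in HD (edgeR adjusted p = 0.127) and 0.45 ± 0.12 in EH (edgeR adjusted p = 0.0433). Against ES cells 17 of the 22 rose and 5 fell in WT motor neurons, where 38.8% of all genes rose and 36.5% fell. Neurod1 was among the 5, and so was Pax6 (5.3 and 3.72 TPM in WT motor neurons, 10.8 and 7.93 TPM in ES cells). These counts are on the edgeR scale. Ldb1 was also among the 5, yet had 249 and 214 TPM in WT motor neurons and 185 and 187 TPM in ES cells. Its direction thus depends on the scaling.

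Mnx1 is a repressor that can recruit Groucho corepressors of the TLE family. Of 6 TLE genes tested, 0 were called in HD and 3 fell in EH against WT, where 11.6% of all genes fell. Tle1 had 135 and 124 TPM in HD, 57.4 and 56.6 TPM in EH, and 83.2 and 90.6 TPM in WT, 3 groups without overlap. It fell by 0.74 ± 0.09 on the log2 scale in EH (edgeR adjusted p = 0.00571), and the HD difference was 0.61 ± 0.09 (edgeR adjusted p = 0.0606), which passed with DESeq2, with no filter and in a fit of HD and WT only. Aes, a short member of the family (also named Tle5), differed by -0.79 ± 0.11 in EH and Tle6 by -1.67 ± 0.41, both called. Tle2 had 0.59 to 2.87 TPM and Tle4 49.2 to 65.5 TPM in motor neurons, and neither was called in either line. The median of the 6 was -0.26 in HD and -0.76 in EH.

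Motor neurons of mouse embryos without Mnx1 are known to take on V2 interneuron genes. Of a list of 13 such genes, 9 could be tested. In HD against WT 0 were called, with a median log2 fold change of 0.10, and in EH 2 rose and 3 fell, with a median of -0.05, where 9.61% of all genes rose and 11.6% fell. Sox1, a SoxB1 factor, came near the threshold in HD and is named after its values were seen. It had 66.5 and 61.8 TPM in HD, 5.73 and 12.1 TPM in EH, and 6.18 and 12.4 TPM in WT, with HD above both other groups. Its HD difference was 2.79 ± 0.43 (edgeR adjusted p = 0.0771), which passed with DESeq2, with no filter and in a fit of HD and WT only. The basic helix-loop-helix factor Bhlhe22 rose in EH by 2.43 ± 0.38 and the RNA-binding protein Lin28b by 1.06 ± 0.12, while the V2b factors Gata2 (-1.67 ± 0.32) and Gata3 (-1.51 ± 0.27) and the V2b-lineage factor Sox21 (-1.39 ± 0.38) fell. Lin28b had 7.95 and 7.8 TPM in HD, 9.29 and 10.4 TPM in EH, and 4.7 and 4.84 TPM in WT, with both lines above WT without overlap. Its HD difference was 0.73 ± 0.12, which did not pass (edgeR adjusted p = 0.116). Gata2 and Gata3 are also trophoblast genes, and the trophoblast markers given above were lower in EH. Their part in these falls was not tested. Gata2 had 36.6 and 43.2 TPM in HD, 20.6 and 10.3 TPM in EH, and 42.5 and 55.6 TPM in WT. Of the 5 cholinergic genes, 0 were called in HD and 1 rose in EH, where 9.61% of all genes rose: Acly, which makes acetyl-CoA (0.43 ± 0.10, edgeR adjusted p = 0.0283). Chat, which makes acetylcholine, had 68.0 and 67.7 TPM in HD, 81.3 and 101.8 TPM in EH, and 118 and 86.8 TPM in WT. HD lay below WT without overlap, by -0.58 ± 0.16, which did not pass (edgeR adjusted p = 0.435). The transporters Slc18a3 (256 to 350 TPM) and Slc5a7 (12.6 to 24.9 TPM) and the esterase Ache (means of 30.8 TPM in HD, 14.2 TPM in EH and 22.6 TPM in WT) were called in neither line. All 5 rose against ES cells in WT motor neurons, as 38.8% of all genes did. Apart from Lmo4, for which this is not given, every call in EH against WT named in these lists was lost without WT replicate 1 and without WT replicate 2.

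The chromatin of the locus was read from 1 deposited list per mark and genotype, so ChIP replicates could not be compared, no test was made, and the read depth is unknown. Fold enrichments are the authors' and are ranked only within their own list. The peak names in the H3K27ac list labelled WT read K27ac_KO, so which H3K27ac list is which genotype is in doubt, and HD and WT are used here for that mark as labelled. H3K4me1 and H3K4me3 covered the locus in HD to 0.91 to 0.95 of their length in WT, H3K27ac to 0.947 as labelled and to 1.06 with its lists exchanged, and the repressive mark H3K27me3 was listed in WT only.

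Mnx1 lay inside 1 broad H3K27ac region in both genotypes, 22397 bases long in HD and 21815 bases in WT. By length this was number 5 of 20698 regions in HD and number 6 of 19174 in WT, and by fold enrichment number 370 in HD and 220 in WT. The remaining H3K27ac lay mostly upstream, on the side towards Ube3c: 12 regions in HD and 15 in WT were upstream of the gene and 2 in each were downstream, at the starts of Nom1 and Lmbr1. All 15 HD regions of the locus overlapped a WT region, where 80% of HD regions did so in the whole list, and 15 of 18 WT regions overlapped an HD region, where 87.2% did so in the whole list. The 3 WT regions not listed in HD were 449 to 675 bases long. The strongest distal region, about 37 kb upstream, had a fold above that of 93.9% of its list in HD and 97.0% in WT.

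H3K4me3 covered Mnx1 as 1 region of 14635 bases in WT, number 8 by length of 21286. In HD the same stretch held 3 regions of 7277, 5050 and 1505 bases, parted by short gaps, and the longest, which held the Mnx1 start, was number 90 of 19226. Upstream, the WT region of 4439 bases met 1 of 3144 bases in HD. All 5 WT regions overlapped an HD region (88.2% in the whole list), as did 7 of 8 HD regions a WT region (98.6% in the whole list). Covered length was 26.1 kb in HD and 27.5 kb in WT, a ratio of 0.949 beside 0.919 for the whole lists.

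H3K4me1 lay on both sides of the gene and left it free in both genotypes. The nearest regions began 1.96 kb upstream and 6.86 kb downstream of the start in HD, and 1.74 kb upstream and 6.02 kb downstream in WT. The 2 longest WT regions, of 5500 and 6900 bases, lay just upstream, where HD had 5 regions of 693 to 3734 bases. Of 25 HD regions 23 overlapped a WT region (89.6% in the whole list), and of 26 WT regions 21 overlapped an HD region (68.4% in the whole list).

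H3K27me3 had 4 regions in WT and 0 in HD. In WT, 1 of 1207 bases lay over the Mnx1 start, 1 of 449 bases lay inside the gene, 1 of 400 bases over the gene's far end and past it, and 1 of 1419 bases at the start of Lmbr1. All 4 were weak, with a -log10 q of 2.18 to 3.9 and a fold above that of 16.9 to 41.6% of the list. In the whole list 51% of WT regions overlapped an HD region, and among the 2320 WT regions in the fold range of these 4 the share was 16.4%. Of 12948 other coding genes with H3K27me3 in their window in WT, 19.9% had none in HD, so its absence at Mnx1 was shared by many loci. H3K9me3 had 1 region in HD and 2 in WT, none nearer to the start than 59.9 kb, and the HD region overlapped the stronger WT region about 60 kb downstream (44.9% of WT and 63.3% of HD regions overlapped in the whole lists).

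Set beside all other coding genes with their own windows, the locus was rich in active marks. H3K27ac covered 41.6 kb in HD and 44.0 kb in WT, which was more than at 99.8% of other genes in both genotypes. H3K4me1 covered 42.9 kb in HD and 46.9 kb in WT, more than at 96.8% of other genes in HD and 91.8% in WT, and H3K4me3 more than at 95.7% in HD and 94.4% in WT. The ratio of HD to WT was 0.947 for H3K27ac as labelled (median of other genes 1.06, with 19.4% of them lower), and 1.06 with its lists exchanged (median 0.934, with 81.8% lower), so its direction rests on the label. It was 0.915 for H3K4me1 (median 0.697, with 89.1% lower). For H3K4me3 it was 0.949 (median 0.940, with 54.1% lower) and for H3K9me3 0.482 (median 0.568, with 42.2% lower). H3K4me1 at Mnx1 therefore had a higher ratio than at most genes, while the other ratios lay inside the range of many loci. Genes with as much H3K4me1 as Mnx1 were not compared apart.

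**Figure D3:**
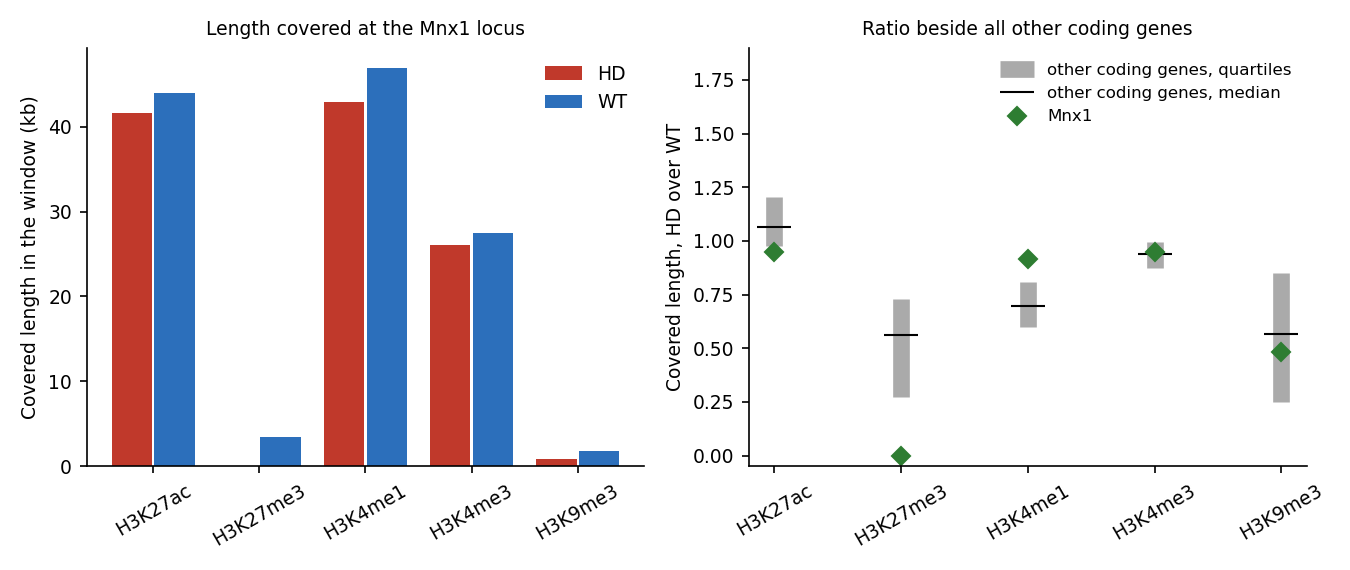
Left, length covered by each mark in the Mnx1 window (kb, bars from 0) in HD and WT. Right, covered length of HD over WT at Mnx1 (diamonds) beside the median and quartiles of all other coding genes with the mark in WT; H3K4me1 lies above the quartiles at 0.915, and H3K27me3 is at 0.

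The Mnx1 ChIP list held 8 regions (9 entries) of its 5793 at the locus, 1 at the Mnx1 start, 6 upstream and 1 downstream. The summit at the promoter lay 228 bases before the start, in a region of 558 bases with a fold enrichment of 5.73, above that of 91.9% of the list. The strongest region had 2 entries and lay 6.78 kb upstream, with a fold of 5.96 (above 93.6% of the list), and another 8.66 kb upstream had 4.86 (80.6%). Farther upstream lay regions at 18.8 kb with a fold of 5.52 (90.2%), at 31.1 kb with 4.66 (75.9%) and at 45.0 kb with 3.07 (10.0%). The region at the Ube3c start, 90.7 kb upstream, had a fold of 5.58 (90.8%), and the downstream region at 10.5 kb had 3.11 (11.1%). Of the 8, 6 stood above the list's median of 3.94, and none lay at the starts of Nom1 or Lmbr1.

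**Figure D4:**
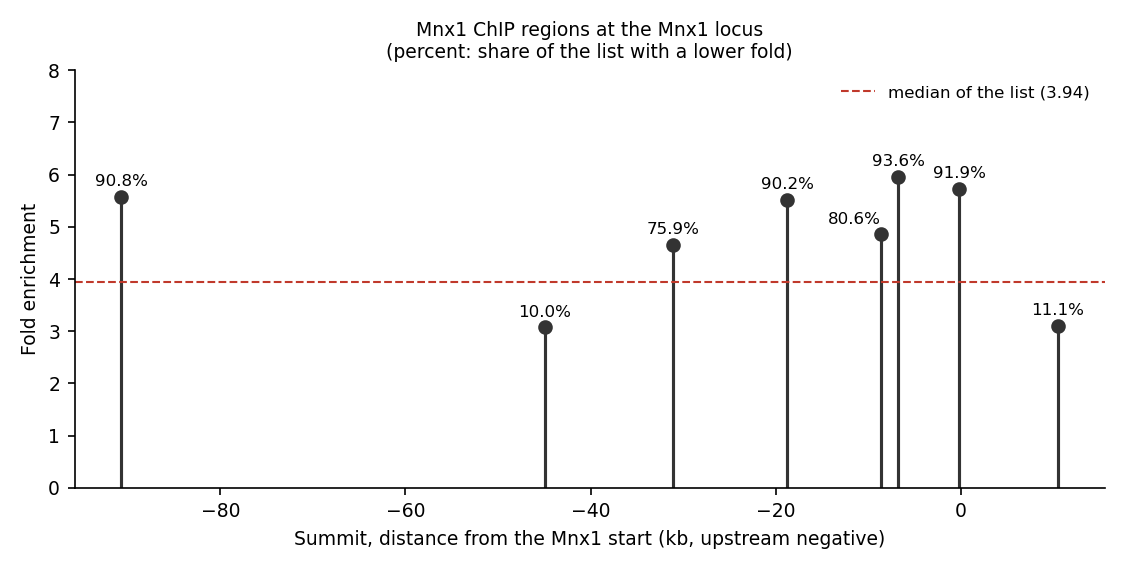
Fold enrichment (vertical axis, from 0) of the 8 Mnx1 ChIP regions by distance of the summit from the Mnx1 start in kb (horizontal axis, upstream negative); labels give the share of the 5793 listed regions with a lower fold and the dashed line the list's median. Within 20 kb upstream 4 regions stand above the median, from 4.86 to 5.96.

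Few genes had as many Mnx1 regions: of 21886 other coding genes, 25 (0.114%) had 8 or more within their own window, the median was 1, and 48.7% had none. All 8 regions overlapped H3K27ac in HD and in WT, where 79.5% of the Mnx1 list overlapped H3K27ac of HD and 77.3% that of WT. Those at the Mnx1 start, 6.78 and 8.66 kb upstream and 10.5 kb downstream all lay in the 1 broad H3K27ac region over Mnx1. That H3K27ac region is thus counted more than once among the 8 overlaps. H3K4me1 overlapped 6 of 8 in both genotypes (53.4% of the list for HD, 61.8% for WT) and H3K4me3 5 of 8 in both (54.4% for HD, 55.7% for WT). The 2 without H3K4me1 were those at the starts of Mnx1 and Ube3c, and the 3 without H3K4me3 were those 18.8, 31.1 and 45.0 kb upstream. The region at the Mnx1 start also overlapped the WT H3K27me3 region there, as 3.33% of the list did with that mark in WT. The H3K27ac region about 37 kb upstream held none of the 8.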

How the data were processed

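RNA was measured in 8 libraries and ChIP in 22. Per the labels, RNA was poly(A)-selected and stranded (TruSeq). Per the submitters' processing notes, the tools were MACS2 and Bowtie2, RSEM, STAR and DESeq2, featureCounts of Subread, Trim Galore and SAMtools, on mm10, without versions or roles. Per the file headers, the deposited RNA files give an expected count, TPM and averaged transcript length per gene, with 11.2 to 12.4 M expected counts in HD, 39.7 to 39.8 M in EH, 13.9 M in WT and 51.3 to 53.2 M in ES libraries. Replicates differed beyond sampling noise in every group. The authors' peak lists, in MACS2 layout, give positions, a fold enrichment ratio and -log10 p and q; how libraries were combined is not given in the sources used here. Peak names in the WT H3K27ac list read K27ac_KO; the label was followed, and the ratio is also given with the lists exchanged. Entries with the same start and end were merged into 1 region with the highest fold.

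After rounding, expected counts entered the quasi-likelihood test of edgeR 4.0.16 in R 4.3.3 (TMM, filterByExpr), with adjusted p of 0.05 as threshold. The 6 motor neuron libraries shared 1 fit, and WT was set against ES cells in a fit of all 8. Each SE is the log2 fold change over the square root of F. Regions were compared by an overlap of 1 bp or more with Python 3.11.15. Alternatives used DESeq2 1.42.0, limma 3.58.1, other scaling, filters, fits and windows. Code was tested on simulated data.

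Genes named are Mnx1, its neighbours within 500 kb with a mean of 1 TPM or more in any group (all within 100 kb), the 5 most like it, and from each list all members up to 5 or the 5 of smallest adjusted p. Members and lists were chosen with earlier results of these data known.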

Additional observations from a re-analysis of the deposited data

Results flagged for a closer look

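Genes named above differed between the lines labelled HD and EH in a direct test of that difference (edgeR adjusted p of 0.05 or less, which 21.2% of all genes met). Mnx1 was lower in HD than in EH by a log2 fold change of -0.61 (adjusted p = 0.0294). Also lower in HD were Isl1 (-0.78), Isl2 (-1.19), Lhx4 (-1.63), Prph (-1.17), Ebf1 (-1.23), Neurod1 (-1.53), Pax6 (-1.32), Bhlhe22 (-2.32), Slc5a7 (-0.74) and Acly (-0.43). Higher in HD were Gbx2 (0.75), En2 (1.95), Tle1 (1.34), Aes (0.57), Tle4 (0.34), Ache (1.098), Gata2 (1.38), Gata3 (1.31), Onecut1 (1.43), Sox1 (2.84) and the trophoblast marker Tpbpa (3.73). Of the 6 TLE genes tested, 3 were called higher and 1 lower in HD. The lower one, Tle3 (-0.62, edgeR adjusted p = 0.0129), was not picked by the naming rule and is left out of the counts below. Lhx4, Onecut1 and Sox1 are among those named after their values were seen. Of the 21 calls beside Mnx1, 14 were lost without HD replicate 1 and 19 without HD replicate 2, when Lhx4 and Tle1 passed. With the replicate block 6 were lost (Acly, En2, Gata2, Gata3, Prph and Tle4), and in a fit of HD and EH only 5 (Acly, En2, Gata2, Pax6 and Tle4). Trophoblast markers, given above, also differ between the lines, and their part was not tested. The EH libraries were also deeper (39.7 to 39.8 M expected counts) than those of HD (11.2 to 12.4 M) and WT (13.9 M). Depth therefore goes with the line in every comparison with EH, and its part was not tested.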

How the results depend on the processing

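The rise of Mnx1 against ES cells passed in all 11 alternatives (9.42 to 9.65 with a replicate left out), and its HD against WT difference passed in none (-0.26 to -0.03 with a replicate left out). Mnx1 in EH against WT passed with no filter on low counts (0.50) and with DESeq2 (0.47), and ranged from 0.29 to 0.63 with a replicate left out. Mnx1 in HD against EH lost its call with the replicate block (-0.61), in a fit of HD and EH only (-0.61) and on log2(TPM + 0.1) (-0.55), and ranged from -0.77 to -0.43 with a replicate left out. Genes called in HD against WT were 27, and 142 with no filter, 182 with DESeq2, 0 with the replicate block, 336 in a fit of HD and WT only, and 0 to 0 with edgeR and a replicate left out (525 to 640 at an unadjusted p under 0.05). In EH against WT 3301 were called, 2080 with the block, 2121 in a fit of EH and WT only and 96 to 5925 with a replicate left out (152 without WT replicate 1, 96 without WT replicate 2). In HD against EH 3303 were called, 2154 with the block, 2014 in a fit of HD and EH only and 280 to 5209 with a replicate left out. Same-numbered libraries deviated from their group means with correlations of -0.32 (HD and EH), 0.36 (HD and WT) and -0.21 (EH and WT). With 2 libraries per group these values cannot decide whether the numbers pair any libraries. Of 54 further gene differences, 109 of 589 recomputed values lost a call, 16 gained one and 2 reversed: Dnajb6 against ES cells, 0.0385 by limma on log2(TPM + 1) and 0.0387 on log2(TPM + 0.1). With the H3K27ac lists exchanged, an alternative chosen after seeing the data, the covered ratio of HD to WT was 1.06. With a -log10 q of 5 or more in both lists, fewer than the 18 WT H3K27ac regions remained at the locus, and 9 of those overlapped an HD region. Having a smaller base, this count is not to be set against the main 15 of 18, and the covered ratio at that q was 0.96. For H3K9me3 at that q the covered ratio was 0 and the overlapping regions 0. A window of 20 kb held 5 Mnx1 regions. For H3K27me3 at that q, and H3K9me3 in windows of 50 and 20 kb, WT had no region and no ratio could be had. The cause of these shifts was not tested.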
